A study of Mus musculus with 8 samples.

Results

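Immediate-early and stress-induced genes are transcribed within minutes of a stimulus from factors already present in the cell. The set described here holds 43 such genes, taken as the rows of a deposited expression table that carry 43 given symbols, out of 23413 symbols in the table. All 43 were present, and 40 of them passed a filter on low values and were tested, while Nr4a2, Nr4a3 and Dusp4 did not. The members were sorted by role into AP-1 factors (8), EGR factors (3), NR4A receptors (3), MAP kinase phosphatases (5), factors of messenger RNA decay (5), GADD45 and related stress genes (4), IER genes (3), regulators of G-protein signalling and small GTPases (4), kinases (3) and other regulators (5).

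Signals that activate MAP kinases, calcium or cyclic AMP reach these genes through serum response factor with its ELK partners and through CREB. Their products are transcription factors such as FOS, JUN and EGR proteins, and also brakes on the same response: DUSP phosphatases inactivate MAP kinases, and ZFP36 and BTG proteins hasten the decay of short-lived messenger RNAs. In microglia, the resident macrophages of the brain, this class of genes is known to be switched on when tissue is digested with enzymes at warm temperature, so that levels in sorted cells can hold a response to the isolation itself.

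RNA sequencing covered 8 mouse libraries: 3 of bone-marrow macrophages, 2 of wild-type microglia and 3 of repopulating microglia. The strain is given as DTR for wild type and as DTRmg for the other groups, so strain and group cannot be told apart in any comparison with wild type. One protocol text stands on every sample: tamoxifen (2 mg) under the skin on postnatal days 12 and 14, repeated diphtheria toxin injections of 500 ng to deplete microglia, papain digestion, a Percoll gradient and flow sorting. It does not name the promoter that drives the toxin receptor, the tissue from which the bone-marrow macrophages came, or whether replicates were separate animals, so the tests see only the spread among these libraries, part of which may be technical. By its title the series is about interleukin-1 and the self-renewal of microglia. No library of cells that had been spared digestion and sorting was among the 8, so induction by isolation was not tested.

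Total gene counts per library ran from 5918944 to 12476427, with replicate 1 of the bone-marrow macrophages the deepest. Levels are normalised counts, that is, deposited counts per gene after division by 1 factor for each library, and are listed in the order of replicate number within a group. Microglial markers summed to 332365 to 376551 normalised counts in wild-type microglia, 232846 to 272623 in repopulating microglia and 76393 to 85120 in bone-marrow macrophages. In the last group the microglial factor Sall1 was near 0, at 35.8, 9.55 and 15.0, while the microglial receptor P2ry12 was still at 2959.6, 4044 and 3020.2. Neutrophil markers, 8 of 8 detected, summed to 27358 to 29084 in wild-type microglia against 1700 to 3165 in repopulating microglia and 821 to 1371 in bone-marrow macrophages, and monocyte markers to 5203 to 7255 against 442 to 906 and 1425 to 2212. Endothelial markers summed to 432 to 659, 213 to 448 and 65.4 to 75.0 in the same order, and markers of border-associated macrophages to 354 to 607, 324 to 934 and 5270 to 6457. That last sum came mainly from Mrc1 (mean 4087 against 319 in wild type) and Pf4 (1478 against 52.1). Cbr2 also had a higher mean there (93.9 against 52.3), while Cd163 (21.2 against 44.3) and Lyve1 (6.46 against 12.4) had lower ones. Oligodendrocyte markers summed to 397 to 459.6 over all libraries, astrocyte markers to 87.5 to 303, lymphocyte markers to 17.7 to 135 and neuronal markers to 10.3 to 33.4. The part of these other cells in the members' levels was not tested, and in sorted bulk RNA fewer cells of a type and less RNA per cell cannot be told apart. Replicate 3 of the repopulating microglia stood apart: without it, 1700 genes passed as higher and 1269 as lower against wild type, where 555 and 428 passed with it.

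Most members had their lowest mean in bone-marrow macrophages. Against wild-type microglia, 25 of the 40 tested members were lower in bone-marrow macrophages and 1 was higher, at a Benjamini-Hochberg adjusted p of 0.05 in limma, where 22.2% of all 11415 tested genes were lower and 21.3% higher. The median log2 difference of the 40 members was -1.25, against -0.01 for all tested genes. In 28 members every bone-marrow library lay below both wild-type libraries, as it did for 37.8% of all genes. Of the 26 calls, 17 held without each library in turn.

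In repopulating microglia 28 of 40 members were higher than in bone-marrow macrophages and 2 were lower, where 16.0% of all tested genes were higher and 14.9% lower. The median log2 difference was 1.92, against 0.00 for all genes. In 29 members the 3 repopulating libraries lay above the 3 bone-marrow libraries, as for 23.7% of all genes. This comparison and the preceding one share the bone-marrow libraries, and 28 of its 30 calls held without each library in turn. Scaling the libraries to equal totals moved the median of all genes to -0.25 here. It moved to 0.13 for bone-marrow macrophages against wild type and to -0.12 for repopulating against wild-type microglia. This scaling turned no called member.

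Fewer members passed between the 2 kinds of microglia. Against wild type, 6 of 40 members rose in repopulating microglia (Egr2, Egr3, Ier2, Ier3, Dusp2 and Maff) and 1 fell (Dusp6), where 4.86% of all tested genes were higher and 3.75% lower. The median log2 difference of the 40 members was 0.43, against -0.02 for all genes. Every repopulating library lay above both wild-type libraries in 19 members, against 18.5% of all genes, and below both in 5, against 22.0%. With equal totals the split was 6 higher and 3 lower. All 8 neutrophil and all 6 monocyte markers passed as lower in the same comparison, and their part in these counts was not tested.

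The calls against wild type rested on few libraries. Without repopulating replicate 3, 14 members were higher and 4 lower, where 15.0% of 11322 tested genes were higher and 11.2% lower. The added higher genes were Btg1, Btg2, Csrnp1, Fosl2, Junb, Rgs1, Zfp36 and Zfp36l1, and the added lower genes were Dusp1, Gadd45g and Rgs2. Without wild-type replicate 1, or without wild-type replicate 2, limma called 0 members, with 9 and 17 of them at an unadjusted p under 0.05, in fits whose lone wild-type library was assumed to vary like the other groups. Few genes of any kind passed in those fits, 0.593% and 1.28% of all tested, while 14.8% and 18.2% had an unadjusted p under 0.05. All 8 libraries gave 7 calls by edgeR and 13 by DESeq2.

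**Figure D1:**
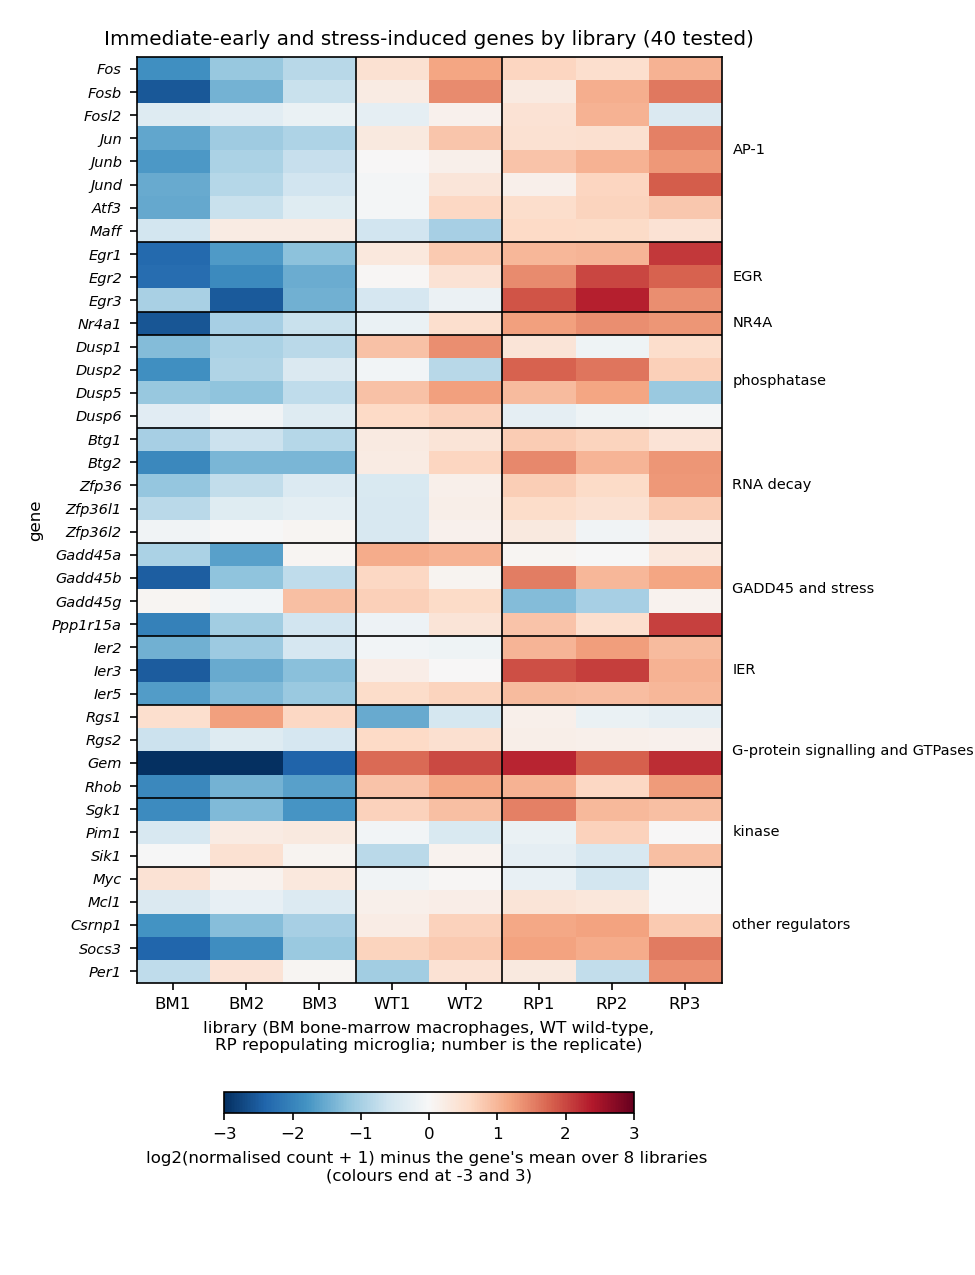
Heat map of the 40 tested members (rows, grouped by role) in 8 libraries (columns), coloured by log2(normalised count + 1) minus the gene's mean over the libraries. Most rows are blue in the 3 bone-marrow columns and red in the 3 repopulating columns. Gadd45g, Rgs1, Myc and, slightly, Sik1 run the other way between those groups (log2 -1.02, -0.88, -0.54 and -0.11).

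**Figure D2:**
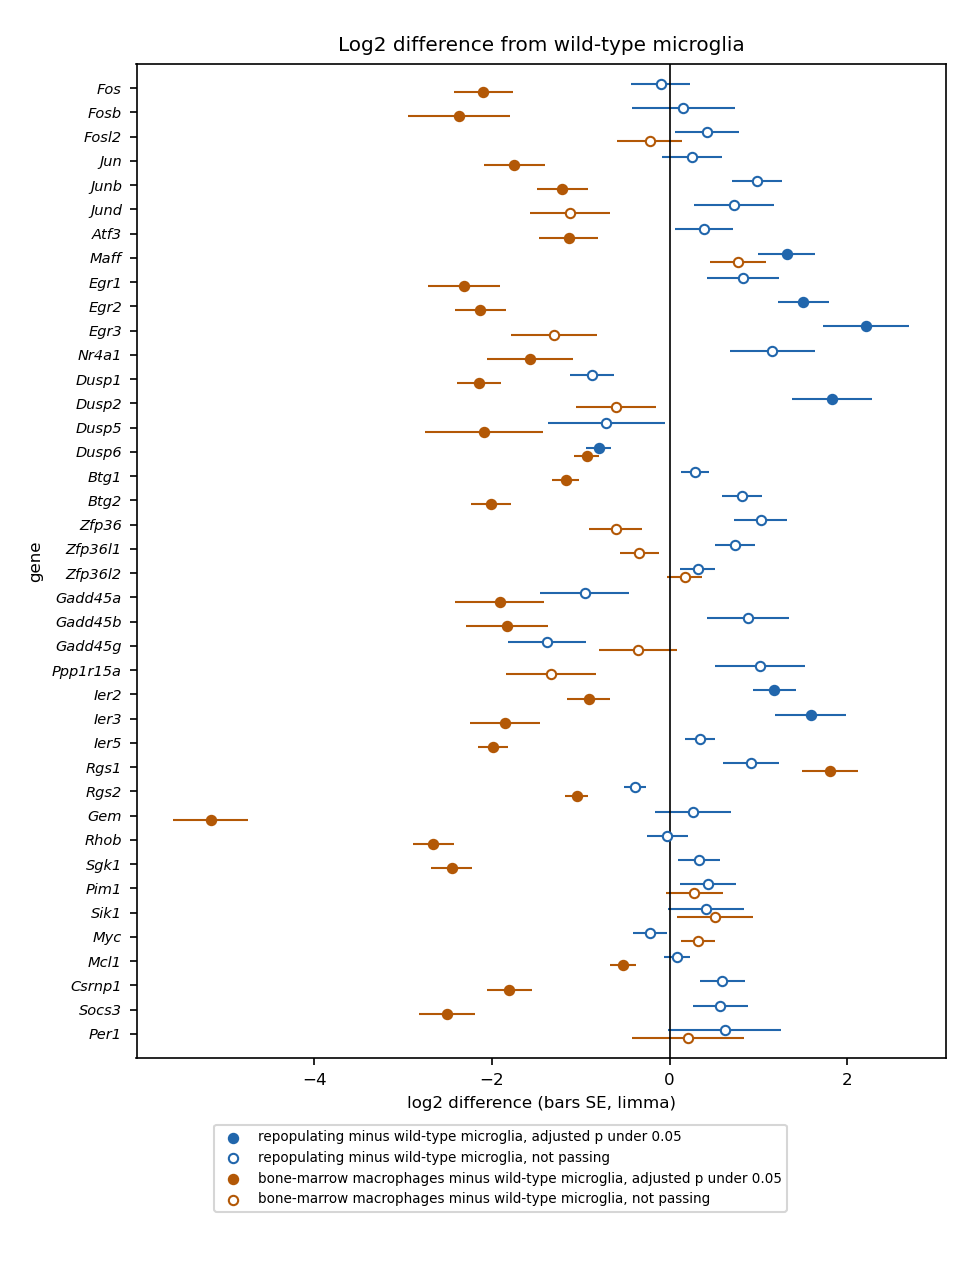
Log2 difference of each tested member from wild-type microglia, with standard errors, for repopulating microglia and for bone-marrow macrophages. Gem lies farthest from 0 in bone-marrow macrophages, at -5.16, and Egr3 farthest in repopulating microglia, at 2.21.

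Promoter sequences were read for the members that passed between the 2 kinds of microglia, since these are the genes on which that comparison turns. RefSeq windows on build GRCm38.p6 were found for 34 of the 43 members, and for 5 of these 7. Each run below holds the 250 bases before a transcription start, read 5′ to 3′ on the plus strand, with matches to the searched motifs in capitals. The windows are Egr2 at chr10:67537619-67537868, Maff at chr15:79347270-79347519, Dusp2 at chr2:127335909-127336158, Ier3 at chr17:35821463-35821712 and Dusp6 at chr10:99262981-99263230.
Egr2: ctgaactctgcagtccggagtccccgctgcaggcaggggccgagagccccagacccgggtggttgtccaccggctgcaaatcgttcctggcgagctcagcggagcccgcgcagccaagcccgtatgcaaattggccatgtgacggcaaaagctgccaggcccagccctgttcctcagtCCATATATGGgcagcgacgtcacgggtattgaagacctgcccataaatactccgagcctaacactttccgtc
Maff: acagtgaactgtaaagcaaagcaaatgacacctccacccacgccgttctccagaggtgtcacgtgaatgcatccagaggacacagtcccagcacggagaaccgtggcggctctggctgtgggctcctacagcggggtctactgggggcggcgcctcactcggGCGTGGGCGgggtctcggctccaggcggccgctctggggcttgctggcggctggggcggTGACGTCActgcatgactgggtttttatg
Dusp2: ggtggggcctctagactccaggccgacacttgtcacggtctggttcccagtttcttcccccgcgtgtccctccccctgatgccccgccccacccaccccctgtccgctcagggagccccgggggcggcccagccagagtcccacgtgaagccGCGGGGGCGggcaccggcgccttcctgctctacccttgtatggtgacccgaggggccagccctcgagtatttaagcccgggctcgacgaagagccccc
Ier3: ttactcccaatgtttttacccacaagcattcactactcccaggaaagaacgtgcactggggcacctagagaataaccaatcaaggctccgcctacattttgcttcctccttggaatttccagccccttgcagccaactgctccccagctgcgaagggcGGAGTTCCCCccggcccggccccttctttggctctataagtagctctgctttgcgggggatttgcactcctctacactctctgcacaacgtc
Dusp6: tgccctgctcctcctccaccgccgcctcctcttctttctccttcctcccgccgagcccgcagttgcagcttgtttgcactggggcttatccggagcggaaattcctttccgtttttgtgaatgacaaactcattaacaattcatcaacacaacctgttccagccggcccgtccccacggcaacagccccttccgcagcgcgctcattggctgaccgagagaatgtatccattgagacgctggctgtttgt
The capitals in Egr2 mark a CArG box, the site of serum response factor, at -72 to -63 from the start. Those in Maff mark an EGR motif at -88 to -80 and a cyclic AMP response element at -29 to -22, those in Dusp2 an EGR motif at -98 to -90, and those in Ier3 an NF-kappaB motif at -92 to -83. No searched motif was found in the Dusp6 window. The windows were those nearest the start of the principal annotated transcript, a choice made after another choice of window had been seen.

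Over all members with a window, 11 of 34 (32.4%) held the EGR motif GCGNGGGCG on either strand, against 10.4% of the 8629 tested genes with a window. A gene counted if any of its windows held the motif. The element TGACGTCA occurred in 4 (11.8%) against 3.08%, namely Btg2, Dusp1, Maff and Ppp1r15a. The CArG box occurred in 3 (8.82%) against 1.31%, namely Dusp5, Egr2 and Zfp36. The NF-kappaB motif occurred in 5 (14.7%) against 5.53%, and the AP-1 motif TGANTCA in 2 (5.88%) against 5.25%. Counted by window, the EGR motif occurred in 22% of the members' 50 windows against 4.70% of all 32851 windows in the table, TGACGTCA in 8% against 1.55%, the CArG box in 12% against 1.47% and the NF-kappaB motif in 10% against 3.90%. Windows of 1 gene count separately here, so that the CArG box was found in 6 windows of only 3 genes. TGANTCA occurred in 4% against 6.75%, so that the members' share lay above the background by gene and below it by window. These are counts of letters and no measure of binding.

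EGR factors are zinc-finger activators induced through serum response factor, and their median log2 difference between repopulating microglia and bone-marrow macrophages, 3.51, was the highest of the role groups with over 1 tested gene. Of the 3 members, 2 rose and 1 was not called in repopulating against wild-type microglia, 2 were lower in bone-marrow macrophages than in wild type, and 3 were higher in repopulating microglia than in bone-marrow macrophages. Of all tested genes, 4.86%, 22.2% and 16.0% passed in these directions, and these shares hold for the role groups below as well. Egr2 stood at 17.6, 23.3 and 31.7 in bone-marrow macrophages, 93.0 and 122 in wild-type microglia and 245, 367 and 311 in repopulating microglia. The 3 groups did not overlap. Repopulating microglia were 2.83-fold above wild type, a log2 difference of 1.50 ± 0.29 (± SE, adjusted p = 0.0180), and 12.4-fold above bone-marrow macrophages (3.63 ± 0.26, adjusted p = 3.44e-05).

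Egr3, a close relative of Egr2, stood at 11.4, 3.18 and 7.94 in bone-marrow macrophages, 16.0 and 20.3 in wild-type microglia and 88.8, 119.5 and 62.2 in repopulating microglia. Again the groups were separate, and the lowest repopulating library was replicate 3. The log2 difference of repopulating from wild-type microglia was 2.21 ± 0.49 (adjusted p = 0.0282) and from bone-marrow macrophages 3.51 ± 0.43 (adjusted p = 0.000484). Against wild type, the Egr3 call ended without repopulating replicate 1 or 2 (adjusted p = 0.0783 and 0.0623), without bone-marrow replicate 3 (0.0563) and without either wild-type library (0.216 and 0.125), while the Egr2 call ended only without wild-type replicate 1 or 2 (0.177 and 0.0806) among the libraries left out.

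Egr1, the best known of the family, stood at 594, 921 and 1290.1 in bone-marrow macrophages, 3756 and 5211 in wild-type microglia and 5968, 6137 and 13172 in repopulating microglia. Replicate 3 of the repopulating microglia held more than any other library, and the groups did not overlap. The difference between the 2 kinds of microglia did not pass (log2 0.83 ± 0.40, adjusted p = 0.230). Bone-marrow macrophages were 4.97-fold below wild type (-2.31 ± 0.40, adjusted p = 0.00218).

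The IER genes are early response genes of different function: Ier3 acts on cell survival, and Ier2 and Ier5 encode nuclear proteins. All 3 were lower in bone-marrow macrophages than in either kind of microglia, and 2 of 3 rose in repopulating against wild-type microglia. Ier3 stood at 83.0, 164 and 198 in bone-marrow macrophages, 539.6 and 475 in wild-type microglia and 1815, 1985 and 978 in repopulating microglia. Its groups were separate and repopulating replicate 3 was the lowest of its group. Ier3 rose in repopulating against wild-type microglia by a log2 difference of 1.59 ± 0.39 (adjusted p = 0.0431).

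Ier2 stood at 685, 869 and 1302 in bone-marrow macrophages, 1752 and 1704 in wild-type microglia and 3732, 4453 and 3605 in repopulating microglia, with the 3 groups apart and the spread within microglia small. The log2 difference between the microglia was 1.18 ± 0.24 (adjusted p = 0.0223), and it was the 1 member still called when only those 2 groups were fitted. Ier5 stood at 696, 896 and 1033 in bone-marrow macrophages, 3299.5 and 3571 in wild type and 4303, 4261 and 4483 in repopulating cells. Its difference between microglia did not pass (0.34 ± 0.17, adjusted p = 0.236), while bone-marrow macrophages were 3.97-fold below wild type (adjusted p = 5.77e-05).

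Left-out libraries ended both IER calls between the microglia. For Ier3 the adjusted p became 0.221 and 0.208 when wild-type replicate 1 or 2 was left out, 0.111 and 0.0828 without repopulating replicates 1 and 2, and 0.0769 and 0.0589 without bone-marrow replicates 2 and 3. For Ier2 it became 0.166 and 0.138 in those same wild-type cases and 0.0582 without repopulating replicate 1. The Ier2 difference of bone-marrow macrophages from wild type (-0.91 ± 0.24, adjusted p = 0.0152) ended without wild-type replicate 1 or 2 (0.0879 and 0.0756).

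AP-1 factors are pairs of FOS and JUN family proteins that act on the promoters of many stimulus-induced genes. Of 8, 5 were lower in bone-marrow macrophages than in wild-type microglia and 6 were lower there than in repopulating microglia, while only Maff rose between the 2 kinds of microglia. Of all tested genes, 22.2%, 16.0% and 4.86% went the same way in these comparisons. Fos stood at 4317, 7142 and 8689 in bone-marrow macrophages, 21396 and 35574 in wild-type microglia and 24264, 21970.0 and 31976 in repopulating microglia. Both kinds of microglia overlapped and lay above every bone-marrow library. Fos was 4.28-fold lower in bone-marrow macrophages than in wild type (log2 -2.10 ± 0.33, adjusted p = 0.00132), and its difference between microglia was -0.10 ± 0.33 (adjusted p = 0.871).

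Fosb, a FOS relative, stood at 159, 348 and 584 in bone-marrow macrophages, 1094 and 2483 in wild type and 1125, 1985 and 2777 in repopulating cells. The microglial groups overlapped, with wild-type replicate 1 the lowest and repopulating replicate 3 the highest of them. Bone-marrow macrophages were below wild type by a log2 difference of -2.37 ± 0.57 (adjusted p = 0.0105), a call that ended without wild-type replicate 2 (0.100). Fosl2 stood at 133, 141 and 153 in bone-marrow macrophages, 145 and 190.1 in wild type and 237, 360.1 and 130.2 in repopulating cells and passed in no comparison with all libraries.

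Jun, the central JUN protein, stood at 2065, 2866 and 3175 in bone-marrow macrophages, 7373 and 10804 in wild-type microglia and 8294, 8419.9 and 17119 in repopulating microglia, of which replicate 3 was the highest. It was 3.36-fold lower in bone-marrow macrophages than in wild type (log2 -1.75 ± 0.34, adjusted p = 0.00376) and did not pass between microglia (0.25 ± 0.34, adjusted p = 0.670). Junb, whose product can restrain JUN, stood at 2043, 3510.5 and 4209.8 in bone-marrow macrophages, 6888 and 7489 in wild type and 12317, 13901 and 16738 in repopulating cells. Its 3 groups were separate and ascended in that order. The difference between microglia, 0.98 ± 0.28, missed the threshold (adjusted p = 0.0669) and passed without repopulating replicate 3 (adjusted p = 0.0222).

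Junb in bone-marrow macrophages was also below wild type (-1.21 ± 0.28, adjusted p = 0.00899), except without wild-type replicate 2 (0.0641). Jund, which many cells express at a steady level, stood at 544, 853 and 1041 in bone-marrow macrophages, 1483 and 1968 in wild type and 1716, 2423 and 5415 in repopulating cells. Repopulating replicate 3 was far above the other libraries, and the gene passed only between repopulating microglia and bone-marrow macrophages (1.85 ± 0.40, adjusted p = 0.00841).

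Atf3, a stress-induced repressor, stood at 692, 1272 and 1576 in bone-marrow macrophages, 1926 and 3122 in wild type and 2916, 3216 and 3521 in repopulating cells. Its microglial groups overlapped, and bone-marrow macrophages were below wild type (-1.14 ± 0.33, adjusted p = 0.0230), except without wild-type replicate 2 (0.185). Maff, a small MAF factor that lacks an activation domain, stood at 23.9, 42.4 and 42.3 in bone-marrow macrophages, 23.5 and 17.3 in wild type and 53.8, 53.1 and 48.4 in repopulating cells. Unlike the 5 AP-1 members that were lower in bone-marrow macrophages, it had its lowest mean in wild type. Repopulating microglia were 2.49-fold above them (log2 1.32 ± 0.32, adjusted p = 0.0386), a call that ended without wild-type replicate 1 or 2 (0.156 and 0.211), repopulating replicate 1 or 2 (0.0944 and 0.0691) or bone-marrow replicate 2 or 3 (0.0662 and 0.0669).

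NR4A genes encode orphan nuclear receptors induced by calcium and inflammatory signals. Nr4a1 stood at 125, 371 and 465 in bone-marrow macrophages, 648 and 1064 in wild-type microglia and 1754, 1953 and 1853 in repopulating microglia. The groups were separate and bone-marrow replicate 1 was the lowest library. It was 6.63-fold higher in repopulating microglia than in bone-marrow macrophages (log2 2.73 ± 0.43, adjusted p = 0.00168), and the difference between microglia did not pass (1.16 ± 0.48, adjusted p = 0.168).

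Bone-marrow macrophages were also below wild type in Nr4a1 (-1.57 ± 0.48, adjusted p = 0.0277), a call that ended without wild-type replicate 1 or 2 (0.0588 and 0.184). The other receptors were close to the limit of detection. Nr4a2 had 1 to 7 reads per library, and Nr4a3 had 2, 1 and 0 reads in bone-marrow macrophages, 6 and 8 in wild-type microglia and 0, 2 and 0 in repopulating microglia. The filter left both out. Fitted without a filter in limma, Nr4a3 was lower in bone-marrow macrophages than in wild type (log2 -2.33 ± 0.67, adjusted p = 0.0277) and did not pass between the microglia (-2.38 ± 0.67, adjusted p = 0.0754), and Nr4a2 passed in no comparison.

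The MAP kinase phosphatases did not move as 1 block. Against wild-type microglia, Dusp2 rose and Dusp6 fell in repopulating microglia, while 3 of 4 tested phosphatases were lower in bone-marrow macrophages. Dusp2, a nuclear phosphatase of activated leukocytes, stood at 44.9, 87.0 and 119.9 in bone-marrow macrophages, 154 and 91.5 in wild-type microglia and 561, 499 and 271 in repopulating microglia. Wild-type and bone-marrow libraries overlapped, and every repopulating library was above them. Repopulating microglia were 3.54-fold above wild type (log2 1.83 ± 0.45, adjusted p = 0.0418).

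Dusp6, the cytoplasmic phosphatase of ERK kinases, stood at 2971, 3487 and 2884 in bone-marrow macrophages, 5749.6 and 6114 in wild-type microglia and 3138, 3455 and 3645 in repopulating microglia. Repopulating and bone-marrow libraries overlapped, and both lay below wild type. The fall in repopulating microglia was 1.74-fold (log2 -0.80 ± 0.14, adjusted p = 0.0133), beside a difference of -0.93 ± 0.14 in bone-marrow macrophages (adjusted p = 0.000946). The Dusp6 call between microglia ended without wild-type replicate 1 or 2 (0.111 and 0.109). The Dusp2 call did so too (0.154 and 0.241), and also without repopulating replicate 1 or 2 (0.110 and 0.0799) or bone-marrow replicate 2 or 3 (0.0783 and 0.0538).

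Dusp1, a nuclear phosphatase of p38 and JNK kinases, stood at 3377, 4332 and 4785 in bone-marrow macrophages, 15246 and 21783 in wild-type microglia and 10944, 7583 and 11909.6 in repopulating microglia. The groups were separate, with repopulating microglia between the other two. Bone-marrow macrophages were 4.42-fold below wild type (log2 -2.14 ± 0.25, adjusted p = 0.000278). Repopulating microglia did not pass against wild type (-0.87 ± 0.25, adjusted p = 0.0666) except without their replicate 3 (0.00431).

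Dusp5, a nuclear ERK phosphatase, stood at 4.55, 4.24 and 6.17 in bone-marrow macrophages, 21.4 and 27.5 in wild type and 22.7, 26.6 and 4.61 in repopulating cells, so that repopulating replicate 3 was level with bone-marrow macrophages and the other 2 repopulating libraries with wild type. Its difference of bone-marrow macrophages from wild type (-2.09 ± 0.66, adjusted p = 0.0313) ended without any 1 of the 3 bone-marrow or 2 wild-type libraries (adjusted p = 0.0792, 0.0816, 0.0621, 0.107 and 0.155). Dusp4 had 6, 6 and 13 reads in bone-marrow macrophages, 2 and 0 in wild-type microglia and 3, 1 and 4 in repopulating microglia and fell below the filter. Fitted without one in limma, Dusp4 was higher in bone-marrow macrophages than in wild type (log2 2.06 ± 0.67, adjusted p = 0.0443) and passed in no other comparison.

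**Figure D3:**
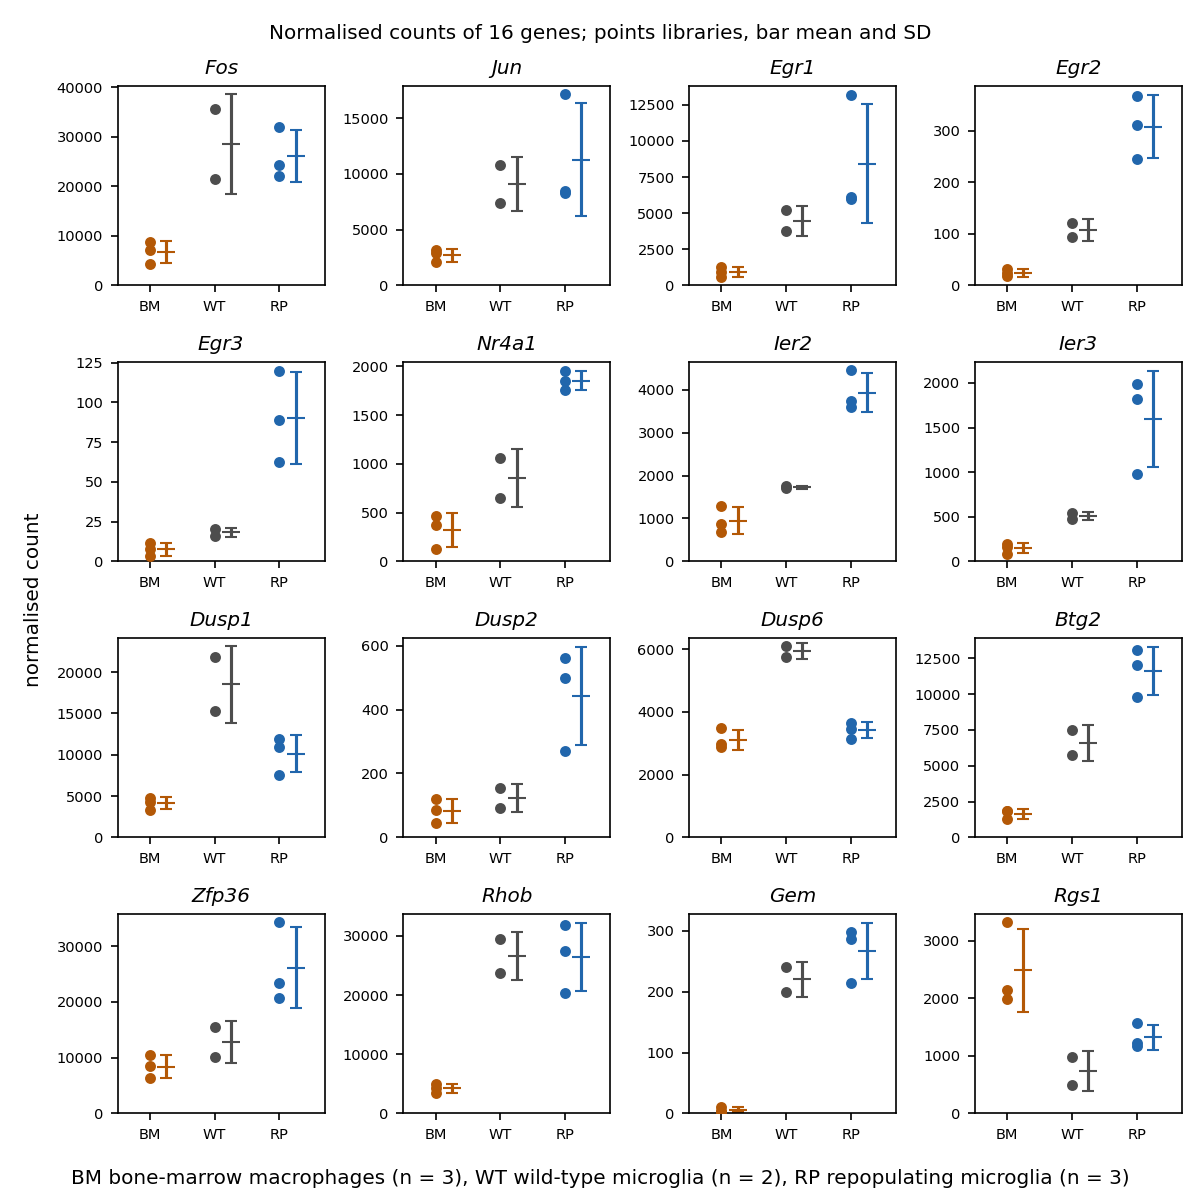
Normalised counts in each library (points) of a selection of members by group, on linear axes from 0, with the mean and SD of each group beside them. Egr2 goes from 17.6 in a bone-marrow library to 367 in a repopulating one with no overlap of groups, whereas Dusp6 is highest in both wild-type libraries.

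The 5 factors of messenger RNA decay comprise the zinc-finger proteins Zfp36, Zfp36l1 and Zfp36l2, which bind AU-rich elements, and the antiproliferative genes Btg1 and Btg2. Against bone-marrow macrophages 4 of 5 were higher in repopulating microglia, with Zfp36l2 the exception. Btg2 stood at 1255, 1849 and 1857 in bone-marrow macrophages, 5728 and 7504 in wild-type microglia and 13065, 9769 and 12034 in repopulating microglia. No library of 1 group reached the range of another. It was 7.09-fold higher in repopulating microglia than in bone-marrow macrophages (log2 2.83 ± 0.20, adjusted p = 3.34e-05) and 4.03-fold lower in bone-marrow macrophages than in wild type (-2.01 ± 0.22, adjusted p = 0.000208).

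Between the microglia, limma called 0 of the 5 decay factors, with 3 at an unadjusted p under 0.05, while edgeR called 0 and DESeq2 3. The nearest was Btg2 (0.82 ± 0.22, adjusted p = 0.0555), and Btg2, Btg1, Zfp36 and Zfp36l1 passed without repopulating replicate 3 (adjusted p = 0.0134, 0.0415, 0.0206 and 0.0308). Zfp36 itself, which encodes tristetraprolin, stood at 6264, 8423 and 10522 in bone-marrow macrophages, 10113 and 15466 in wild type and 23317, 20669.7 and 34347 in repopulating cells. Bone-marrow and wild-type libraries overlapped, and the repopulating libraries were above both (log2 1.63 ± 0.27 against bone-marrow macrophages, adjusted p = 0.00203).

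Btg1 stood at 1245, 1583 and 1369 in bone-marrow macrophages, 3012 and 3255 in wild-type microglia and 4202, 3957 and 3332 in repopulating microglia, and bone-marrow macrophages were 2.25-fold below wild type (-1.17 ± 0.15, adjusted p = 0.000530). Zfp36l1 stood at 1457, 1963 and 2068 in bone-marrow macrophages, 1828 and 2863 in wild type and 3713, 3477 and 4272 in repopulating cells and was higher in repopulating microglia than in bone-marrow macrophages (1.07 ± 0.20, adjusted p = 0.00400). Zfp36l2 overlapped across the groups, at 3692, 3961 and 4137 in bone-marrow macrophages, 2819.8 and 4319 in wild type and 4823, 3700.0 and 4612 in repopulating cells, and passed in no comparison.

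The GADD45 proteins act in growth arrest and stress kinase signalling, and the 3 paralogs had different patterns. Gadd45b stood at 9.09, 23.3 and 31.7 in bone-marrow macrophages, 85.5 and 58.0 in wild-type microglia and 161, 111 and 127 in repopulating microglia. Its groups were separate, and repopulating microglia were 6.59-fold above bone-marrow macrophages (log2 2.72 ± 0.41, adjusted p = 0.00140). Bone-marrow macrophages were below wild type (-1.83 ± 0.46, adjusted p = 0.0124), except without wild-type replicate 1 (0.101).

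Gadd45a was highest in wild-type microglia, at 26.7 and 25.4, against 5.68, 3.18 and 12.3 in bone-marrow macrophages and 12.3, 11.8 and 15.0 in repopulating microglia. The difference of bone-marrow macrophages from wild type (-1.91 ± 0.50, adjusted p = 0.0144) ended without wild-type replicate 1 or 2 (0.0858 and 0.0750). Gadd45g stood at 62.5, 56.2 and 113 in bone-marrow macrophages, 99.4 and 89.5 in wild type and 23.6, 29.5 and 64.5 in repopulating cells. It had the lowest log2 difference of any tested member between the microglia, -1.38 ± 0.44, which did not pass (adjusted p = 0.0896) and passed without repopulating replicate 3 (0.00123).

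Ppp1r15a, also called GADD34, returns the stress-phosphorylated translation factor eIF2 to its active form. It stood at 74.4, 147 and 204 in bone-marrow macrophages, 276 and 401 in wild type and 554, 435 and 1266 in repopulating cells, with replicate 3 the highest of the repopulating libraries. It passed only between repopulating microglia and bone-marrow macrophages (2.36 ± 0.45, adjusted p = 0.00460). Between the microglia limma called 0 of these 4 genes, with 1 at an unadjusted p under 0.05, and edgeR and DESeq2 each called 0.

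The widest contrast of any member was Gem, a small GTPase of the RGK family that inhibits calcium channels. Gem stood at 2.84, 4.24 and 10.6 in bone-marrow macrophages, 199.8 and 241 in wild-type microglia and 298, 214 and 287 in repopulating microglia. Both kinds of microglia overlapped, and no bone-marrow library came near them. Bone-marrow macrophages were 35.8-fold below wild type (log2 -5.16 ± 0.42, adjusted p = 4.88e-05), while the difference between microglia was 0.26 ± 0.42 (adjusted p = 0.723).

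Rhob, an endosomal small GTPase, stood at 3465, 4956 and 4274 in bone-marrow macrophages, 23796 and 29508 in wild-type microglia and 27381, 20348 and 31767 in repopulating microglia. As for Gem, the microglial groups overlapped above the bone-marrow libraries, with 6.33-fold less in bone-marrow macrophages than in wild type (-2.66 ± 0.23, adjusted p = 6.48e-05) and no call between the microglia (-0.02 ± 0.23).

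The RGS proteins, which shorten signals from G-protein-coupled receptors, went in opposite directions. Rgs1 was the 1 member higher in bone-marrow macrophages than in wild-type microglia, at 1981, 3319.6 and 2153 against 492 and 978, with 1576, 1219 and 1173 in repopulating microglia. The log2 difference of bone-marrow macrophages from wild type was 1.80 ± 0.31 (adjusted p = 0.00220) and that of repopulating microglia from bone-marrow macrophages -0.88 ± 0.28 (adjusted p = 0.0422). The second ended without bone-marrow replicate 1, 2 or 3 (0.0591, 0.147 and 0.0821) or repopulating replicate 1 or 2 (0.0567 and 0.0867).

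Rgs2 stood at 3095, 3664 and 3408 in bone-marrow macrophages, 7248 and 6731 in wild-type microglia and 5448, 5325 and 5237 in repopulating microglia. The groups were separate with little spread, and bone-marrow macrophages were 2.07-fold below wild type (-1.05 ± 0.13, adjusted p = 0.000351). Of these 4 genes limma called 0 between the microglia, with 2 at an unadjusted p under 0.05, while edgeR called 0 and DESeq2 1. Without repopulating replicate 3, Rgs1 passed as higher (0.0235) and Rgs2 as lower (0.0303).

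Among the kinases, only Sgk1 passed in any comparison. Sgk1, a kinase of the AKT type induced by serum and glucocorticoids, stood at 1427, 2121 and 1545 in bone-marrow macrophages, 8470.0 and 9926 in wild-type microglia and 15090.0, 10279.5 and 9867 in repopulating microglia. It was 5.48-fold lower in bone-marrow macrophages than in wild type (-2.45 ± 0.23, adjusted p = 9.60e-05) and did not pass between the microglia (0.33 ± 0.23, adjusted p = 0.399). Pim1, a survival kinase, stood at 177, 293 and 302 in bone-marrow macrophages, 235 and 180.0 in wild type and 215, 400.0 and 249.9 in repopulating cells. Sik1, a salt-inducible kinase that restrains CREB coactivators, stood at 86.9, 121 and 93.5 in bone-marrow macrophages, 50.2 and 95.6 in wild type and 73.7, 63.5 and 167 in repopulating cells, and in both genes the groups overlapped.

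Of the other regulators, Socs3, which blocks cytokine signalling through JAK kinases, stood at 434, 623 and 1042 in bone-marrow macrophages, 3551 and 3890.1 in wild-type microglia and 5222, 4899.9 and 6596 in repopulating microglia. The groups did not overlap. Bone-marrow macrophages were 5.66-fold below wild type (-2.50 ± 0.31, adjusted p = 0.000412), and the difference between microglia did not pass (0.57 ± 0.31, adjusted p = 0.279).

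Csrnp1, a nuclear protein induced by AXIN, stood at 155, 222 and 268 in bone-marrow macrophages, 624 and 861 in wild type and 1189, 1228 and 925 in repopulating cells and was 3.49-fold lower in bone-marrow macrophages than in wild type (-1.80 ± 0.25, adjusted p = 0.000709). Mcl1, which encodes a survival factor of the BCL2 family, stood at 2048, 2335 and 2071 in bone-marrow macrophages, 3039 and 3142 in wild type and 3617, 3479 and 2772 in repopulating cells. Its difference of -0.52 ± 0.15 between bone-marrow macrophages and wild type (adjusted p = 0.0205) ended without bone-marrow replicate 1 or 3 (0.0739 and 0.0671) or either wild-type library (0.0901 and 0.111).

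Myc, a driver of growth, ran against the set, at 372, 294 and 340.4 in bone-marrow macrophages, 255 and 279 in wild-type microglia and 236, 187 and 272 in repopulating microglia. Repopulating microglia were below bone-marrow macrophages (-0.54 ± 0.17, adjusted p = 0.0398), a call lost without any 1 library other than repopulating replicate 3 (adjusted p from 0.0543 to 0.155). The clock gene Per1 varied more within groups than between them, at 131, 297 and 235 in bone-marrow macrophages, 108 and 304 in wild type and 278, 134 and 582 in repopulating cells.

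Within the bone-marrow and wild-type groups many members ranked the libraries alike, and within the repopulating group they did not. Bone-marrow replicate 1 was the lowest of its group in 34 of the 40 tested members, where it was so in 27.5% of all tested genes, and replicate 3 was the highest in 28, against 37.4% of all genes. Wild-type replicate 2 was above replicate 1 in 31 members, against 48.5%, and over 1.5 times above it in 10, against 8.86%. Repopulating replicate 3 was the highest of its group in 20 members and the lowest in 13, against 41.9% and 43.7%. Replicate 1 of that group was the highest in 11 and the lowest in 11, against 24.8% and 21.1%, and replicate 2 the highest in 9 and the lowest in 16, against 33.2% and 34.9%. Members share their libraries, so these counts describe the libraries and carry no test.

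The median deviation of the 40 members from their mean over all libraries, on the log2 scale, was -1.47, -0.98 and -0.62 in bone-marrow replicates 1 to 3. It was 0.17 and 0.43 in wild-type microglia and 0.69, 0.67 and 0.94 in repopulating microglia, while for all genes it was 0.01 or 0.02 in every library. The bone-marrow libraries thus spanned more than the microglial libraries of both kinds. Summed over the 43 members, normalised counts made up 0.649, 0.875 and 0.938% of the total in bone-marrow macrophages, 1.76 and 2.48% in wild-type microglia and 2.16, 1.98 and 2.98% in repopulating microglia. What set the libraries of a group apart was not tested.

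**Figure D4:**
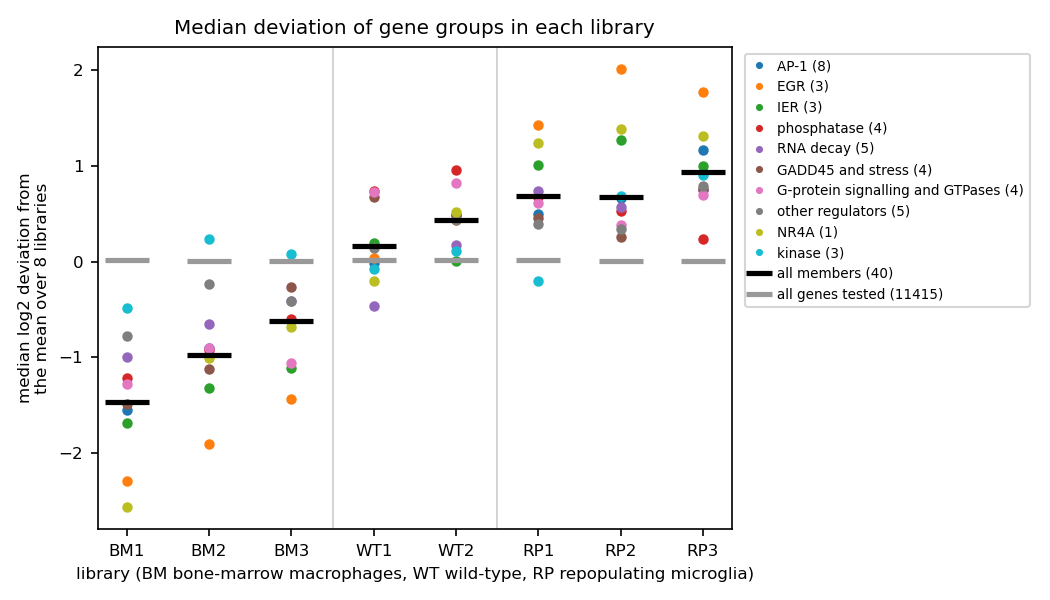
Median log2 deviation from the mean over 8 libraries for each role group (coloured points), all 40 tested members (black bars) and all 11415 tested genes (grey bars), by library. The black bars go from -1.47 in bone-marrow replicate 1 to 0.94 in repopulating replicate 3, and the grey bars stay at 0.01 or 0.02.

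Genes upstream of the members had median differences near 0 in all 3 comparisons, and the activity of the pathway was not measured. Of 24 MAP kinase, SRF, ELK and CREB pathway genes, limma called 0 between the microglia, with 3 at an unadjusted p under 0.05, while edgeR called 0 and DESeq2 2, and the median log2 difference was -0.11. In bone-marrow macrophages against wild type 3 were higher and 4 lower, with a median of -0.15, where 21.3% of all tested genes were higher and 22.2% lower. Among the pathway genes the kinase Mapkapk2 (0.70 ± 0.13, adjusted p = 0.00253) and Mkl2 (1.36 ± 0.29, adjusted p = 0.00562) were higher. The ERK activator Map2k1 was lower (-0.52 ± 0.12, adjusted p = 0.00719). Against bone-marrow macrophages, repopulating microglia were higher in 1, Elk3 (0.75 ± 0.13, adjusted p = 0.00289), and lower in 2, with a median of 0.07. The 2 were Mkl2 (-1.15 ± 0.26, adjusted p = 0.00975) and Map2k3 (-0.59 ± 0.16, adjusted p = 0.0210). Of all tested genes, 16.0% were higher and 14.9% lower in that comparison. The shares of all genes in each comparison hold for the lists below as well.

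Other AP-1 and basic leucine zipper factors, 19 of 20 tested, were split as well. Between the microglia 1 rose, the endoplasmic reticulum stress factor Atf6 (0.72 ± 0.14, adjusted p = 0.0179), and 1 fell, the inflammatory factor Cebpd (-0.80 ± 0.19, adjusted p = 0.0391). Bone-marrow macrophages were higher than wild type in 4 and lower in 4, and repopulating microglia were higher than bone-marrow macrophages in 4 and lower in 4. The medians were 0.04, 0.07 and 0.13 in these 3 comparisons.

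Of 13 further MAP kinase phosphatases and Sprouty-type inhibitors, 10 were tested, and limma called 0 between the microglia, with 1 at an unadjusted p under 0.05, while edgeR and DESeq2 each called 0. Spry1, a feedback inhibitor of receptor kinases, stood at 18.2, 37.1 and 24.7 in bone-marrow macrophages, 154 and 234 in wild-type microglia and 136, 115 and 334 in repopulating microglia. It was lower in bone-marrow macrophages than in wild type (-2.84 ± 0.47, adjusted p = 0.00166), as was 1 other, and 1 was higher.

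The last lists hold genes commonly named in responses to tissue dissociation. Of 11 heat shock genes, 1 rose between the microglia, the chaperone Hsp90ab1 (0.63 ± 0.15, adjusted p = 0.0391), and the median was 0.08. Against wild type, 3 were higher in bone-marrow macrophages, namely Hsp90ab1, Hspd1 and Hsp90aa1 (log2 1.54, 0.91 and 0.53). The 3 lower there were Hspb1, Hspa1a and Dnajb1 (-3.25, -2.97 and -1.18), with only 4, 1 and 0 reads of Hspb1. The median of that comparison was -0.02. Against bone-marrow macrophages, 2 were higher and 3 lower in repopulating microglia. The inducible chaperone Hspa1a was uneven within groups, at 64.2, 17.0 and 91.7 in bone-marrow macrophages, 207 and 670.0 in wild-type microglia and 1038, 156 and 85.2 in repopulating microglia. Every bone-marrow library lay below both wild-type libraries, and limma called that difference (adjusted p = 0.0486). Among the repopulating libraries Hspa1a was highest in replicate 1, as were 11 of the 40 tested members.

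The NF-kappaB and cytokine list of 18 genes also holds Klf2, Klf4, Klf6 and Id2. Of the 18, 3 rose and none fell between the microglia, with a median log2 difference of 0.72. They were the cytokine Tnf (2.01 ± 0.39, adjusted p = 0.0182), the chemokine Ccl3 (1.54 ± 0.32, adjusted p = 0.0238) and the nuclear IkB protein Nfkbid (1.72 ± 0.38, adjusted p = 0.0299). Tnf stood at 245, 432 and 541 in bone-marrow macrophages, 344 and 304 in wild-type microglia and 1137, 2094 and 941 in repopulating microglia, so that every repopulating library was above the other groups. Without wild-type replicate 1 or 2 none of the 3 was called, with 7 and 8 of the 18 at an unadjusted p under 0.05.

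Against bone-marrow macrophages 12 of these 18 were higher in repopulating microglia, with a median of 1.12, and 6 were lower in bone-marrow macrophages than in wild type, with a median of -0.68. Klf2, a factor that keeps macrophages quiescent, stood at 248, 389 and 347 in bone-marrow macrophages, 3196 and 5710.1 in wild type and 3034, 1711 and 3126 in repopulating cells and had the smallest adjusted p in both (-3.72 ± 0.33, adjusted p = 7.51e-05, and 2.97 ± 0.30, adjusted p = 0.000162). Il1a, a ligand of the interleukin-1 receptor, stood at 269, 474 and 449.7 in bone-marrow macrophages, 882 and 847 in wild type and 1699, 2364 and 1433 in repopulating cells and did not overlap between groups. Its difference between the microglia did not pass (1.05 ± 0.28, adjusted p = 0.0503).

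Calls in these 5 lists moved with single libraries, as did those of all genes. Between the microglia, 8.61% of all tested genes passed in either direction with all libraries, 26.2% without repopulating replicate 3, and 0.593% and 1.28% without wild-type replicates 1 and 2. Without repopulating replicate 3, calls between the microglia numbered 4 of the MAP kinase and SRF genes, 5 of the other bZIP factors, 1 of the further phosphatases, 4 of the heat shock genes and 12 of the NF-kappaB and cytokine genes. Without wild-type replicate 1, or without wild-type replicate 2, there were 0 in each list, with from 0 to 8 at an unadjusted p under 0.05 in limma. The 1 heat shock call between the microglia was lost without any library other than repopulating replicate 3, and the 2 bZIP calls became 1 without any 1 bone-marrow library or repopulating replicate 1. The 3 calls of the NF-kappaB and cytokine list became 2 without bone-marrow replicate 2 or repopulating replicate 1 or 2.

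Between bone-marrow macrophages and wild type, 43.5% of all tested genes passed with all libraries, 31.6% without bone-marrow replicate 1, 25.0% and 26.7% without wild-type replicates 1 and 2, and 61.8% without repopulating replicate 3. In the same fits the 7 calls of the MAP kinase and SRF genes became 4 without either wild-type library and 12 without repopulating replicate 3. The 6 heat shock calls became 3 without bone-marrow replicate 1 and 10 without repopulating replicate 3. The 6 calls of the NF-kappaB and cytokine list became 5 without bone-marrow replicate 1 and 12 without repopulating replicate 3. Both the heat shock and the NF-kappaB lists had their fewest calls when either wild-type library was left out. Those fits hold a lone wild-type library. The 3 calls of the further phosphatases became 1 without wild-type replicate 1 and 6 without repopulating replicate 3. Between repopulating microglia and bone-marrow macrophages, 30.9% of all tested genes passed with all libraries, 19.4% to 47.1% when 1 was left out. There were 12 calls in the NF-kappaB and cytokine list, and 11 to 16 when 1 library was left out. The 5 heat shock calls ranged from 1 (without bone-marrow replicate 2) to 10 (without repopulating replicate 3). The 8 bZIP calls ranged from 4 to 10 and the 3 MAP kinase and SRF calls from 1 to 8.

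Per kilobase of merged exon, Fos had the highest mean level of all members in bone-marrow macrophages (2856 normalised counts per kilobase) and in wild-type microglia (12111). In repopulating microglia Rhob (11281) and Fos (11084) led, followed by Zfp36 (7525) and Junb (6223). Dusp1 was the third in wild-type microglia, at 5592, after Rhob at 11346. Exons of 12 members, among them Jun, Junb, Jund, Dusp1, Zfp36 and Csrnp1, overlap an annotated gene on the opposite strand, such as Junos for Jun, and reads of the pair cannot be told apart because the libraries do not mark strand.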

How the data were processed

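Per the labels' protocols, libraries came from TruSeq RNA v2, a kit that leaves strand unmarked. The submitters' processing notes name DESeq 1.14.0, HTSeq, Bowtie2 2.1.0.0, TopHat2 2.0.10 and mm10. For the tools' roles, the annotation and the strand setting, nothing is given in the sources used here. What was deposited is a signal that the authors made from gene counts by dividing each library by 1 factor: 100% of the values above 0 were whole multiples of 1 read, within 0.01 reads. Reads were recovered on that basis for the count tests. Columns named mono were matched to the bone-marrow macrophages by exclusion.

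Tests used log2(normalised count + 1), which understates the change of low genes, for the 11415 genes that reached 10 normalised counts in 2 or more libraries. limma 3.58.1 in R 4.3.3 was fitted to all 8 libraries with a variance trend and no covariates, two-sided, with Benjamini-Hochberg adjustment over all tested genes within each comparison and a threshold of 0.05. Errors beside log2 differences are standard errors. Alternatives were pseudocounts of 0.5 and 4, no filter or one of 50, equal totals, TMM scaling, edgeR 4.0.16, DESeq2 1.42.0, no variance trend, library weights, only the groups compared, the replicate block and each library left out. The test was checked on simulated counts with the same spread setting for every gene and no library that stood apart. The check therefore does not cover a library such as repopulating replicate 3.

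The symbols of the 43 members were given; their role groups, the pathway and marker lists and the tests were chosen with earlier results of these data known. The result of 1 marker list is not reported here. Library values are printed for members called in any comparison and for others as room allowed, and for pathway lists up to 3 called genes by smallest adjusted p, in part; Hspa1a, Tnf, Spry1 and Il1a were given in full after their values had been seen. Exon lengths and overlaps come from GENCODE vM21 and promoters from RefSeq (GRCm38.p6). Motif searches covered both strands, and no motif's letters lie within another's. Figures were drawn with matplotlib 3.10.9.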

Additional observations from a re-analysis of the deposited data

How the results depend on the processing

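No member call turned direction under any alternative, and of the 3 comparisons the calls between repopulating microglia and bone-marrow macrophages moved least. For repopulating against wild-type microglia, 7 members were called, against 4 with no filter on low values, 13 with DESeq2, 14 with library weights and 1 with only the groups compared. The share of all genes passing moved likewise, from 8.61% to 5.49%, 14.3%, 24.6% and 0.683%. The member count ran from 0 to 18 when 1 library was left out (0 without either wild-type library, 18 without repopulating replicate 3, where 0.593%, 1.28% and 26.2% of all genes passed). Equal totals gave 9. For bone-marrow macrophages against wild type the 26 calls became 18 to 31 when 1 library was left out, and the 30 calls between repopulating microglia and bone-marrow macrophages became 28 to 33. With the replicate number as a block, 4 members were called between the microglia, 28 between bone-marrow macrophages and wild type and 31 between repopulating microglia and bone-marrow macrophages. No shared source is stated for libraries of the same number. Deviations of same-numbered libraries from their group means correlated across genes at -0.24 to 0.24. Wild-type replicate 2 and repopulating replicate 3 correlated at 0.32, and bone-marrow replicate 1 correlated best with repopulating replicate 2, not 1. The deviations of the 2 wild-type libraries mirror each other by construction, so their values are not independent. The cause of these movements was not tested. Depth limits the precision for Nr4a2, Nr4a3 and Dusp4, which had at most 13 reads in any library. It also limits the differences from bone-marrow macrophages of Gem (5, 4 and 12 reads there), Dusp5 (8, 4 and 7), Egr3 (20, 3 and 9) and Gadd45a (10, 3 and 14).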
